A study of Mus musculus with 2 samples.

Results

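Leukocyte adhesion molecules and sialomucins of the vessel wall were followed through 10 genes, Icam1, Icam2, Vcam1, Selp, Sele, Cd34, Podxl, Emcn, Cd93 and Clec14a, picked by their symbols out of 19813 genes with a row in both count tables. The samples were endothelial cells of wild-type C57BL/6 mouse retinas at postnatal day (P) 6 and P15, sorted as CD31+CD45- and read as 1 droplet library (10x Genomics) per age. Neither library carried a transgene or a treatment, and how many pups or litters were pooled was not given in the sources used here. The P6 library held 1984 cell barcodes and 13958124 UMIs (unique molecular identifiers, 1 per captured RNA molecule), and the P15 library held 2141 barcodes and 11589641 UMIs. Cells were kept if they passed the filter of the study or carried one of its cluster labels, which left 1585 cells at P6 (median 5316 UMIs) and 1673 at P15 (median 4300 UMIs). Cells carried 9 cluster labels: Primitive, Proliferative, Tip, Stalk, Capillary, Arterial, Cap-Arterial, Venous and Cap-Venous. They were read for 1560 P6 cells and for all but 1235 of the P15 cells kept, and only 2 of those P15 cells were Venous, so 8 clusters could be compared between ages. With 1 library per age there was no replicate and no test, so a difference of age cannot be told apart from a difference of library, and every interval given is a 95% interval for counting error only.

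Leukocytes leave the blood by steps. Selectins on the endothelium (P-selectin, Selp, and E-selectin, Sele) catch and roll them by binding sialylated and fucosylated glycans, and the immunoglobulin-type ligands Icam1, Icam2 and Vcam1 then hold them through integrins. Cd34, Podxl and Emcn are sialomucins, long glycosylated proteins of the luminal surface; Emcn is commonly used to stain veins and capillaries, while Podxl serves in lumen opening. Cd93 and Clec14a are C-type lectin-like transmembrane proteins of angiogenic endothelium that bind the matrix protein Mmrn2.

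The makeup of the sorted cells was read first. The 8 endothelial markers summed to 7926 UMIs per 1000000 (CPM) at P6 and 13126 at P15, and each cell kept held at least 1 UMI of them. That does not separate cell types. Such a UMI was also in 80.5% of barcodes with a retinal neural profile at P6 and 95.45% of those with a pericyte profile at P15. The pericyte list (6 genes, chiefly Rgs5) was 11.2 CPM at P6 and 263 at P15, and the leukocyte and microglia list (7 of 8 genes with a row in both tables) held 22 and 50 UMIs, 2.26 and 6.49 CPM. The gene without a row in both was Ptprc, which encodes CD45, so the CD45- side of the sort was not checked by its own gene. The list of Muller glia and astrocyte genes was 335 CPM at P6 and 1222 at P15 and was nearly all Glul, with 3236 of 3261 UMIs at P6 and 8905 of 9423 at P15, where Rlbp1 of the same list went from 12 to 491 UMIs. The retinal neural list was 17.6 CPM at P6 and 74.7 at P15, and the erythroid list 22.1 and 171. The pericyte, leukocyte and microglia, glial, neural and erythroid lists thus all stood higher in the P15 library, and their part in the ratios of age was not tested. The libraries shared 7 barcodes, of which 2 were among cells kept in both, and 12 P6 and 13 P15 cells held both Xist and Y-linked UMIs.

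Bases upstream of the annotated start were available from RefSeq (GRCm38.p6) for 6 of the 10 genes: Icam1, Selp, Sele, Cd34, Emcn and Clec14a. Those of 3 genes are shown because the genes behave differently below: Sele was nearly absent, Emcn was widely expressed and uneven among Cap-Arterial cells, and Clec14a was higher at P15. The window starts 250 bases before the RefSeq start and stops at the most upstream start annotated by GENCODE, and capitals mark AGGAAG or its reverse complement, a core motif of ETS factors, on either strand.
Sele, chr1:164047984-164048233, plus strand: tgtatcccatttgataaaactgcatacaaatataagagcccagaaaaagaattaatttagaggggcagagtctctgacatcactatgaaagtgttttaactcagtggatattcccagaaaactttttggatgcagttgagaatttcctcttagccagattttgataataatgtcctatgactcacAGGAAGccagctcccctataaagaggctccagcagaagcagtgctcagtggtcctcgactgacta
Emcn, chr3:137340828-137341066, plus strand: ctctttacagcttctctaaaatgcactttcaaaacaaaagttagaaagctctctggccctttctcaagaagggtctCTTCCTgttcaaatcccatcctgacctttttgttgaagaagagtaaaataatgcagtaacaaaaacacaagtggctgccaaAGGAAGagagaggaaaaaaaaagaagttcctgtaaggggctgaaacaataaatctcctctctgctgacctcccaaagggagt
Clec14a, chr12:58269291-58269508, minus strand: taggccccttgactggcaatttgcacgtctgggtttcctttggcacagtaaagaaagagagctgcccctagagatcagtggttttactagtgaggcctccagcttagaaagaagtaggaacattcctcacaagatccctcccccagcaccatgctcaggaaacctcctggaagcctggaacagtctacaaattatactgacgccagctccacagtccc
Emcn held AGGAAG at 2 places, -174 to -169 on the other strand and -93 to -88 on its own, counted from the RefSeq start, where 28.0% of 27025 genes had at least 1 match in a window of the same 239 bases. Sele held 1 at -65 to -60, followed by TATAAA at -49 to -44, a 6-mer that 12.9% of genes had in 250 bases. The 218 bases of Clec14a held no AGGAAG, which 25.6% of genes had in a window of that length, and no TATAAA, which 10.2% had. GGGCGG, an SP-factor motif, was not found there either (28.1% of genes). The kappa B decamer, searched only as GGGRNNYYCC (R for A or G, Y for C or T, N for any base), had no match in any of the 6 windows (7.07% of genes over 250 bases). Variants that depart from this pattern were not searched, so the windows may hold other forms of kappa B site. These matches describe letters only.

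To ask how the genes differed between the growing P6 network and the remodelled P15 one, CPM of all cells kept were compared. Of the 8 genes with at least 50 UMIs over both libraries, 4 were at least 1.5-fold higher at P15, Podxl, Clec14a, Vcam1 and Icam1, against 19.7% of the 11274 genes tested. None was 1.5-fold lower, against 12.6% of all genes. The median ratio over all genes was 1.09 (0.13 on the log2 scale) and that of the 8 endothelial markers 1.32, so Icam2, Cd34 and Emcn, at 1.26 to 1.39, stood near the endothelial markers. In such sums, more cells of a type and more RNA per cell cannot be told apart, and the genes are therefore also given by cluster.

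**Figure D1:**
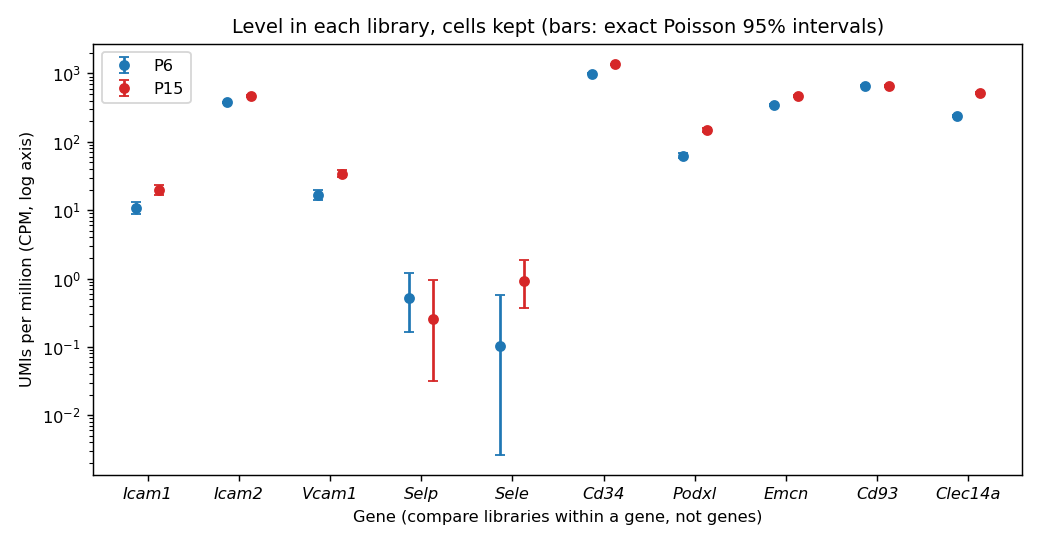
Points give the level of each gene in CPM (log axis) over the 1585 P6 (blue) and 1673 P15 (red) cells kept, with exact Poisson 95% intervals. Podxl and Clec14a stand higher at P15 by more than 2-fold, Cd93 is level, and both selectins lie near or below 1 CPM.

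Icam2 (ENSMUSG00000001029, chr11:106377656-106388075, minus strand), the constitutive ligand of the leukocyte integrin LFA-1, was detected at 376 CPM at P6 and 474 at P15, a ratio of 1.26 (1.20 to 1.32). It was highest in Arterial cells at both ages, 962 and 835 CPM. Cap-Arterial cells followed with 639 and 700.2 CPM, and Cap-Venous cells had 295 and 433. At P6 the Arterial interval lay above that of Cap-Arterial, with a ratio of 1.505 (1.27 to 1.78); at P15, with 11 Arterial cells, the ratio was 1.19 (0.832 to 1.67). The median Arterial cell at P6 held 4.5 UMIs and 39 of 40 had at least 1, against a median of 1 in Cap-Venous cells. After thinning each cell to 3000 UMIs, 26 of 32 Arterial and 230 of 388 Cap-Venous cells held Icam2 at P6. Unthinned, it was in 3 of 41 neural-profile barcodes (7.32%, median 3863 UMIs) at P6. At P15 it was in 5 of 44 pericyte-profile barcodes (11.4%, median 3515 UMIs). Of these 41 and 44 barcodes, 80.5% and 95.45% also held a UMI of the endothelial list.

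Vcam1 (ENSMUSG00000027962, chr3:116109949-116129688, minus strand), the ligand of integrin alpha 4 beta 1, followed the artery much more narrowly. Arterial cells had 334 CPM at P6 and 346 at P15, where Cap-Arterial cells had 39.5 and 16.5 and Cap-Venous cells 9.02 and 14.4. Arterial cells gave 40.7% of all Vcam1 UMIs of labelled P6 cells while holding 2.05% of all UMIs, and at P15 41.5% against 2.29%. The Arterial level was thus 8.46-fold (5.49 to 13.3) that of Cap-Arterial cells at P6 and 20.97-fold (7.43 to 72.7) at P15, the latter from 17 and 5 UMIs. Among the 1235 P15 cells without a label, 28 were predicted to be Arterial from their neighbours in a space built without the 10 genes, and these had 745 CPM against 56.6 in 215 predicted Cap-Arterial cells. The Arterial ratio of P15 to P6 was 1.04 (0.570 to 1.79) in labelled cells and 2.23 (1.60 to 3.12) in the predicted cells alone. Those 28 predicted cells held 85 UMIs of Vcam1, of which 35 were in 1 cell. Such a prediction recovered 7 of 11 labelled P15 Arterial cells.

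Within the artery Vcam1 was uneven. At P6, 21 of 40 Arterial cells (52.5%, 36.1 to 68.5) held a UMI of it, 4 of them held 5 or more, and those 4 gave 59.1% of the cluster's UMIs. Only 17 of 414 Cap-Venous cells (4.11%) held one, with at most 3 UMIs, and none of the 41 barcodes with a retinal neural profile did (median 3863 UMIs, against 4400 in Arterial and 5741 in Cap-Venous cells). After thinning each cell to 3000 UMIs, 13 of 32 Arterial and 4 of 388 Cap-Venous cells still held Vcam1. At P15, 5 of 11 Arterial cells held it.

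**Figure D2:**
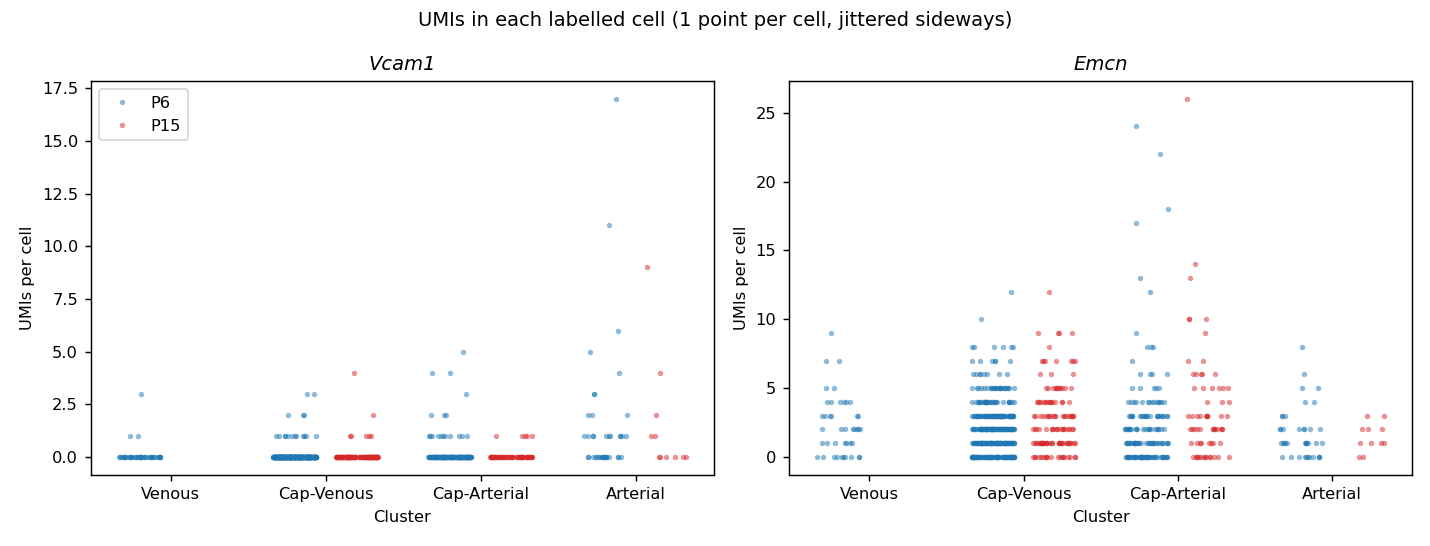
Each point is a labelled cell, placed by its UMIs of Vcam1 (left) or Emcn (right) on a linear axis, in P6 (blue) and P15 (red); the Venous cluster is drawn for P6 only, as 2 P15 cells had that label. Vcam1 reaches 17 UMIs in Arterial cells and at most 5 in the other clusters shown, and Emcn reaches 24 and 26 UMIs in a few Cap-Arterial cells.

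The library total of Vcam1 was 16.7 CPM at P6 and 34.1 at P15, a ratio of 2.05 (1.68 to 2.51), yet the ratio was 1.14 (0.789 to 1.62) over labelled cells and 1.10 when the P15 clusters were weighted to their P6 shares. The share of cells with a UMI was 5.36% at P6 and 5.56% at P15, and 3.56% and 4.87% after thinning to 3000 UMIs. A single P15 cell held 35 of the 263 UMIs, and 10 cells with 5 or more UMIs held 124. At P15 28.0% of cells with Vcam1 also held a pericyte marker, against 28.5% of those without, and at P6 4.71% against 3.13%; the ratio was 2.34 (1.89 to 2.90) without any cell that held one.

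Icam1 (ENSMUSG00000037405, chr9:21015985-21028817, plus strand), the cytokine-inducible ligand of LFA-1 and Mac-1, was sparse at both ages. It had 104 UMIs in 88 P6 cells and 152 in 121 P15 cells, 10.7 and 19.7 CPM, a ratio of 1.84 (1.43 to 2.39). The share of cells was 5.55% and 7.23%, or 3.49% and 5.37% after thinning. None of the 41 neural-profile barcodes at P6 or 44 pericyte-profile barcodes at P15 held a UMI. Taking 3 counts as the limit, these zeros allow up to 13.1 and 18.8 CPM. Of the 5 pericyte-profile barcodes at P6, 1 held a UMI. It had no arterial peak at P6, where levels by cluster lay between 7.12 and 17.0 CPM outside Primitive cells, and no neighbouring intervals in that order were separate. The P15 Arterial value, 40.8 CPM, came from 2 UMIs in 1 cell. In Primitive cells not a UMI was found in 155 cells at P6 or in 36 at P15. With 3 counts as the limit this allows up to 3.185 CPM at P6. At P15 it allows up to 24.2 CPM, above the 19.7 of the whole library. Of 113 predicted Primitive P15 cells, 1 held a UMI. At P15 the labelled Cap-Venous cells had 23.6 CPM, 2.09-fold (1.10 to 3.87) their P6 level. Unlabelled P15 cells predicted as Cap-Venous had 27.3 CPM, and those predicted as Cap-Arterial 11.5 CPM. In P15 cells with Icam1, 40.5% also held a pericyte UMI against 27.5% of those without, and cells with Icam1 were deeper (median 5292 against 4200 UMIs). The part of depth or pericyte RNA in this was not tested; without cells holding a pericyte UMI the ratio of P15 to P6 was 1.67 (1.25 to 2.24).

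The selectins were nearly absent. Selp (ENSMUSG00000026580, chr1:164115264-164150026, plus strand) gave 5 UMIs in 5 of 1585 P6 cells and 2 in 2 of 1673 P15 cells, a ratio of 0.505 with an interval from 0.0481 to 3.08. Sele (ENSMUSG00000026582, chr1:164048234-164057677, plus strand), which lies 57586 bases before Selp, gave 1 UMI in 1 P6 cell and 7 in 4 P15 cells, 3 of them in the same cell, a ratio of 8.83 (1.14 to 398). No Arterial, Cap-Arterial, Venous or Capillary cell with a label held a UMI of either gene at either age. Taking 3 counts as the limit, that count of 0 allows a share of cells with a UMI of up to 7.50% for the 40 P6 Arterial cells and 1.85% for the 162 Cap-Arterial cells. It does not limit the share of cells that express these genes. Barcodes not kept added 2 UMIs of Selp at each age and 2 of Sele at P15.

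Cd34 (ENSMUSG00000016494, chr1:194938819-194961279, plus strand), a sialomucin of blood stem cells and of endothelium, where it is used as a Tip cell marker, was found in 96.5% of P6 and 95.8% of P15 cells, or 91.3% and 96.8% after thinning. It was also found in 5 of 41 neural-profile barcodes at P6 (12.2%) and 18 of 44 pericyte-profile barcodes at P15 (40.9%). Its level was 984 and 1367 CPM, a ratio of 1.39 (1.35 to 1.43). Tip cells were highest at both ages with 1347 and 1728 CPM, 1.44-fold (1.36 to 1.52) and 1.35-fold (1.22 to 1.49) all other labelled cells. At P6 the Tip interval was separate from that of Capillary cells, the next in order at 1163 CPM. At P15 the next were Cap-Arterial cells at 1496 CPM, and no neighbouring intervals in the order were separate. The ratio of P15 to P6 was 1.28 to 1.45 in Stalk, Tip, Primitive, Cap-Venous and Cap-Arterial cells, with intervals above 1, and the intervals of Capillary (1.08), Arterial (1.20) and Proliferative cells (0.899, 0.717 to 1.11) included 1. The Proliferative value rested on 14 labelled P15 cells, and in the 25 predicted ones alone it was 1.20 (1.01 to 1.43).

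Podxl (ENSMUSG00000025608, chr6:31519488-31563981, minus strand), podocalyxin, was the gene with the largest ratio among the 8. It had 606 UMIs (62.3 CPM) at P6 and 1150 (149 CPM) at P15, a ratio of 2.39 (2.17 to 2.65). Cells with a UMI were 29.0% at P6 and 43.2% at P15 despite the lower P15 depth, and 16.5% and 32.1% after thinning. The higher level was found in 8 of 8 clusters with enough cells, with each interval above 1, from 1.42 (1.04 to 1.93) in Cap-Arterial to 4.68 (2.34 to 9.05) in Primitive cells. The latter came from 16 UMIs in 36 P15 cells, 129 CPM, and the 113 predicted Primitive cells had 76.2 CPM (48.8 to 113) against 27.6 (18.0 to 40.4) at P6. The P15 Primitive cluster was shallow (median 2704 UMIs) and held 637.5 CPM of retinal neural markers. Podxl had no UMI in the 6 neural-profile or 44 pericyte-profile barcodes of P15, and 1 UMI each in 5 of 41 neural-profile barcodes at P6 (12.2%). Arterial cells were highest at both ages, 182 and 448 CPM, followed at P6 by Cap-Arterial cells at 153 CPM and at P15 by Capillary cells at 265 CPM.

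Emcn (ENSMUSG00000054690, chr3:137341067-137432185, plus strand), endomucin, stood in the list of venous genes from which the study made its Venous Score. Its level was 347 CPM at P6 and 474 at P15, a ratio of 1.36 (1.30 to 1.43), with UMIs in 77.4% and 76.8% of cells and, after thinning, in 61.0% and 74.9%. By mean level the highest cluster was Cap-Arterial at both ages, 475 and 799 CPM, where Cap-Venous had 329.9 and 485 CPM and Venous 344 CPM at P6. At P6 Tip (414 CPM) and Capillary cells (413 CPM) came next, and no neighbouring intervals in the order of levels were separate. At P15 Capillary cells came next at 530 CPM (400 to 688), below the Cap-Arterial interval (702 to 907). Arterial cells were lower than Cap-Arterial cells at both ages, 0.735-fold (0.561 to 0.952) and 0.408-fold (0.229 to 0.676), and in unlabelled P15 cells with predicted labels 0.597-fold (0.427 to 0.814).

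Emcn was unevenly spread among Cap-Arterial cells. At P6, 20 of 162 held 5 or more UMIs and gave 49.1% of the cluster's Emcn, while 49 held none. Cells with 5 or more UMIs were 12.3% of Cap-Arterial and 11.4% of Cap-Venous cells, but gave 32.5% of Emcn in the latter, and 6 Cap-Arterial against 2 Cap-Venous cells held 10 or more. At P15, 20 of 68 Cap-Arterial cells (29.4%) held 5 or more UMIs and gave 68.6%, against 27 of 134 Cap-Venous cells (20.1%) and 48.1%. The share of P6 cells with any UMI was 69.8% in Cap-Arterial and 78.3% in Cap-Venous cells at median depths of 4474 and 5741 UMIs. At an equal 3000 UMIs it was 63.2% (54.4 to 71.3) and 59.8% (54.7 to 64.7), against 68.6% in Tip and 68.1% in Capillary cells. Of the 10 genes Emcn was the one found in the largest share of pericyte-profile barcodes at P15. There 20 of 44 (45.5%, median 3515 UMIs) held it, at 207 CPM, against 1 of 41 neural-profile barcodes at P6. The 44 barcodes also held 1280 CPM of the endothelial list, and 95.45% had a UMI of that list. The part of endothelial RNA in their Emcn was not tested.

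Cd93 (ENSMUSG00000027435, chr2:148436640-148443563, minus strand) was the 1 gene of the 8 whose ratio of P15 to P6 had an interval that included 1. It was at 661 and 651 CPM, a ratio of 0.985 (0.949 to 1.02). The ratio left this interval in 6 of 11 alternatives. It was 0.947 (0.910 to 0.985) in cells that passed the filter and 1.07 (1.04 to 1.10) over all barcodes. Cd93 was present in 92.9% and 85.6% of cells, and in 80.7% and 78.9% after thinning, against 17.1% of neural-profile barcodes at P6 and 27.3% of pericyte-profile barcodes at P15. Capillary cells were highest with 1264 and 1173 CPM and Tip cells second with 851 and 971, and at P6 these intervals were separate. Capillary cells were also the shallowest cluster, with a median of 3204 UMIs at P6 and 2268 at P15, and had the highest median mitochondrial share, 2.51% and 1.80%; the part of this in the level was not tested. Clusters differed around this nearly even total. Arterial cells had 658 CPM at P6 and 326 at P15, 0.496-fold (0.275 to 0.836), and Cap-Arterial cells 0.778-fold (0.657 to 0.917), and Stalk cells were at 1.15-fold (1.004 to 1.31). In predicted P15 cells alone the Cap-Arterial ratio was 0.815 (0.729 to 0.912), and that of Stalk cells 0.997 (0.887 to 1.12). The 28 unlabelled P15 cells predicted as Arterial had 534 CPM (409 to 686), above the 326 of the 11 labelled ones, a ratio to P6 of 0.812 (0.589 to 1.11).

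Clec14a (ENSMUSG00000045930, chr12:58264720-58269290, minus strand, a single exon) had 240 CPM at P6 and 512 at P15, a ratio of 2.14 (2.03 to 2.25). Cells with a UMI were 64.6% and 72.8%, or 46.5% and 67.6% after thinning, against 1 of 41 neural-profile barcodes at P6 and 7 of 44 pericyte-profile barcodes at P15. The level was higher at P15 in 8 of 8 clusters and the interval lay above 1 in 6, from 1.70 in Proliferative to 2.69 in Stalk cells. The other 2 were the arterial ones: 1.11 (0.630 to 1.86) in Arterial and 1.23 (0.962 to 1.57) in Cap-Arterial cells, set beside 2.26 (2.002 to 2.54) in Cap-Venous cells. The Arterial value rested on 19 UMIs in 11 P15 cells. In the 28 predicted Arterial cells alone the ratio was 1.73 (1.22 to 2.45), and in predicted Cap-Arterial cells alone it was 1.04 (0.865 to 1.25). Cells with 5 or more UMIs of Clec14a made up 7.49% of Cap-Venous cells at P6 and 30.6% at P15, against 4.94% and 5.88% of Cap-Arterial cells.

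**Figure D3:**
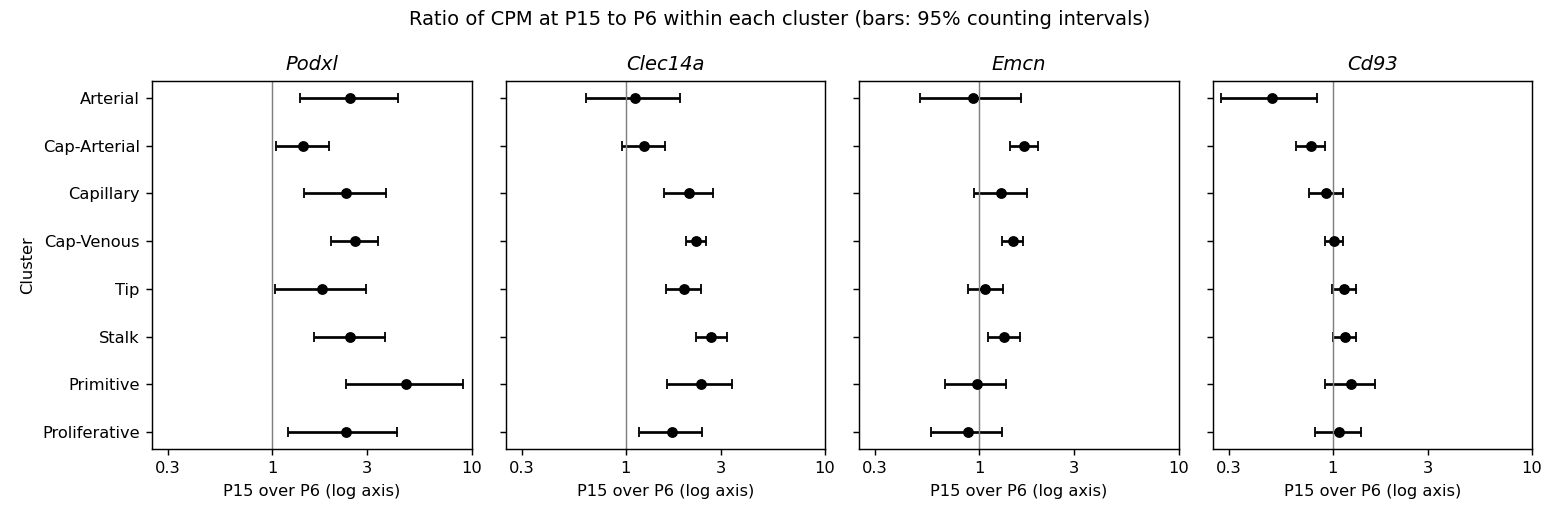
Points are the ratio of CPM at P15 to CPM at P6 (log axis) within each of 8 clusters of labelled cells for Podxl, Clec14a, Emcn and Cd93, with 95% counting intervals and a line at 1. Podxl lies above 1 in each cluster, Clec14a lies above 1 with intervals that include 1 in the Arterial and Cap-Arterial clusters, and Cd93 lies below 1 in those clusters.

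The study ordered its clusters from venous to arterial, and Arterial with Cap-Arterial cells (202 at P6, 79 at P15) were set against Venous with Cap-Venous cells (456 and 136). The clusters were drawn from the expression of all genes, so these ratios describe the labels. At P6, 3 of the 7 genes with 50 UMIs in these cells were at least 1.5-fold higher on the arterial side, against 12.7% of 7540 genes: Vcam1 at 9.73-fold (6.38 to 15.3), Podxl at 3.16-fold (2.51 to 3.97) and Icam2 at 2.30-fold (2.08 to 2.53). None was 1.5-fold lower, against 7.97%. Emcn, Cd93 and Cd34 were at 1.36, 1.26 and 1.22, and Clec14a was even at 1.03 (0.897 to 1.18).

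At P15 the arterial side was higher by 1.5-fold or more for Podxl at 1.93 (1.43 to 2.59), Icam2 at 1.66 (1.41 to 1.96) and Emcn at 1.52 (1.29 to 1.79), 3 of the 6 genes with 50 UMIs, against 10.3% of 3908 genes. Emcn lay under 1.5 in 7 of 9 alternatives, at 1.26 without cells that held a pericyte UMI and at 0.673 when Arterial cells alone were set against Cap-Venous cells. Clec14a was lower at 0.554 (0.449 to 0.680), 335 CPM against 605, where 9.06% of genes were lower. Vcam1, with 33 UMIs, was at 4.38 (2.03 to 10.0). The P15 ratio divided by the P6 ratio was 0.539 (0.423 to 0.687) for Clec14a and, in unlabelled cells with predicted labels, 0.521 (0.436 to 0.623). In labelled cells it was above 1 for Emcn, 1.12 (0.922 to 1.36), and below 1 for the other genes. How many of all genes had such a value was not computed. The median arterial ratio over all genes tested was 1.04 at P6 and 1.01 at P15. The interval also lay below 1 for Podxl, 0.610 (0.425 to 0.877), Icam2, 0.725 (0.599 to 0.877), and Cd93, 0.766 (0.636 to 0.922), and included 1 for Vcam1, Icam1 and Cd34. In the predicted cells the interval of Cd93 reached 1, at 0.906 (0.8004 to 1.03), and those of Icam1, 0.297 (0.123 to 0.717), and Cd34, 0.825 (0.753 to 0.904), lay below it.

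**Figure D4:**
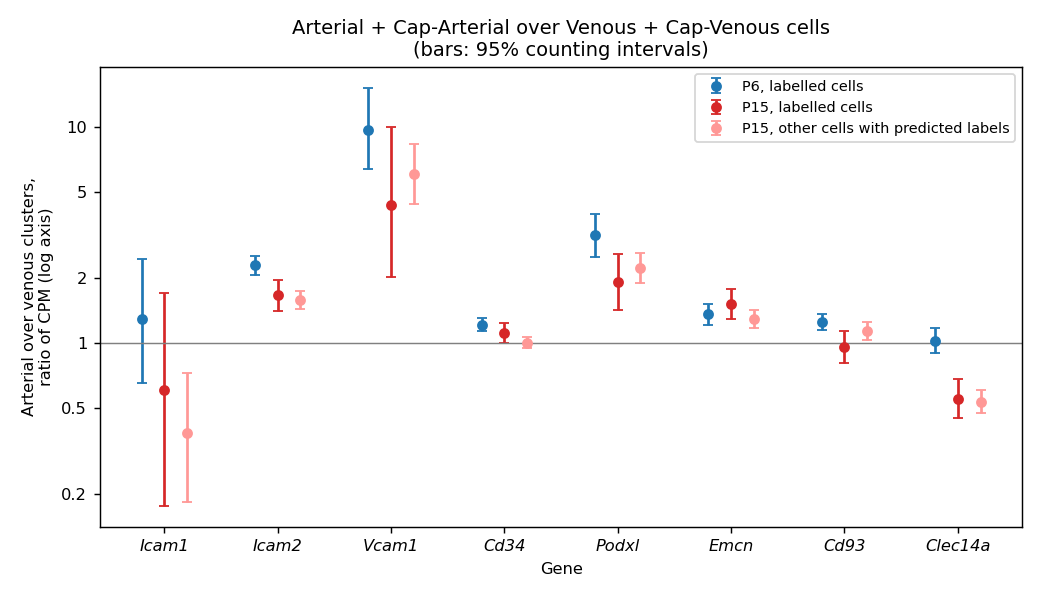
Points are the ratio of CPM in Arterial and Cap-Arterial cells to CPM in Venous and Cap-Venous cells (log axis) with 95% counting intervals, in labelled P6 cells (blue), labelled P15 cells (red) and unlabelled P15 cells with predicted labels (pink). Vcam1, Podxl and Icam2 lie above 1 in all 3, and Clec14a lies at 1.03 at P6 and at 0.554 and 0.536 at P15.

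For the 1235 unlabelled P15 cells, 5-fold cross-validation had recovered 74.0% of known P15 labels. By label it recovered 7 of 11 Arterial, 1 of 2 Venous, 75% of Cap-Arterial and 91.0% of Cap-Venous cells. Vcam1, Podxl and Icam2 were again higher on the predicted arterial side, at 6.06, 2.24 and 1.59, against 8.19% of genes. Clec14a at 0.536 (0.475 to 0.604) and Icam1 at 0.385 (0.184 to 0.731) were lower, against 7.74%. Predicted Arterial cells had 604 CPM of Clec14a and predicted Cap-Arterial cells 276, a ratio of 2.19 (1.66 to 2.87), where predicted Cap-Venous cells had 579. In labelled P15 cells the ratio of Arterial to Cap-Arterial was 1.18 (0.684 to 1.95), from 19 Arterial UMIs. Both stood below Cap-Venous cells there, at 387 and 327 against 607.5 CPM. The Muller glia and astrocyte list, nearly all Glul, also stood higher on the arterial side, 1564 and 1592 CPM in Arterial and Cap-Arterial against 249.5 in Cap-Venous cells at P6. Pericyte markers in labelled P15 cells were at 137.5 CPM in Cap-Venous and 139 in Cap-Arterial cells. The part of other cells in these ratios was not tested.

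**Figure D5:**
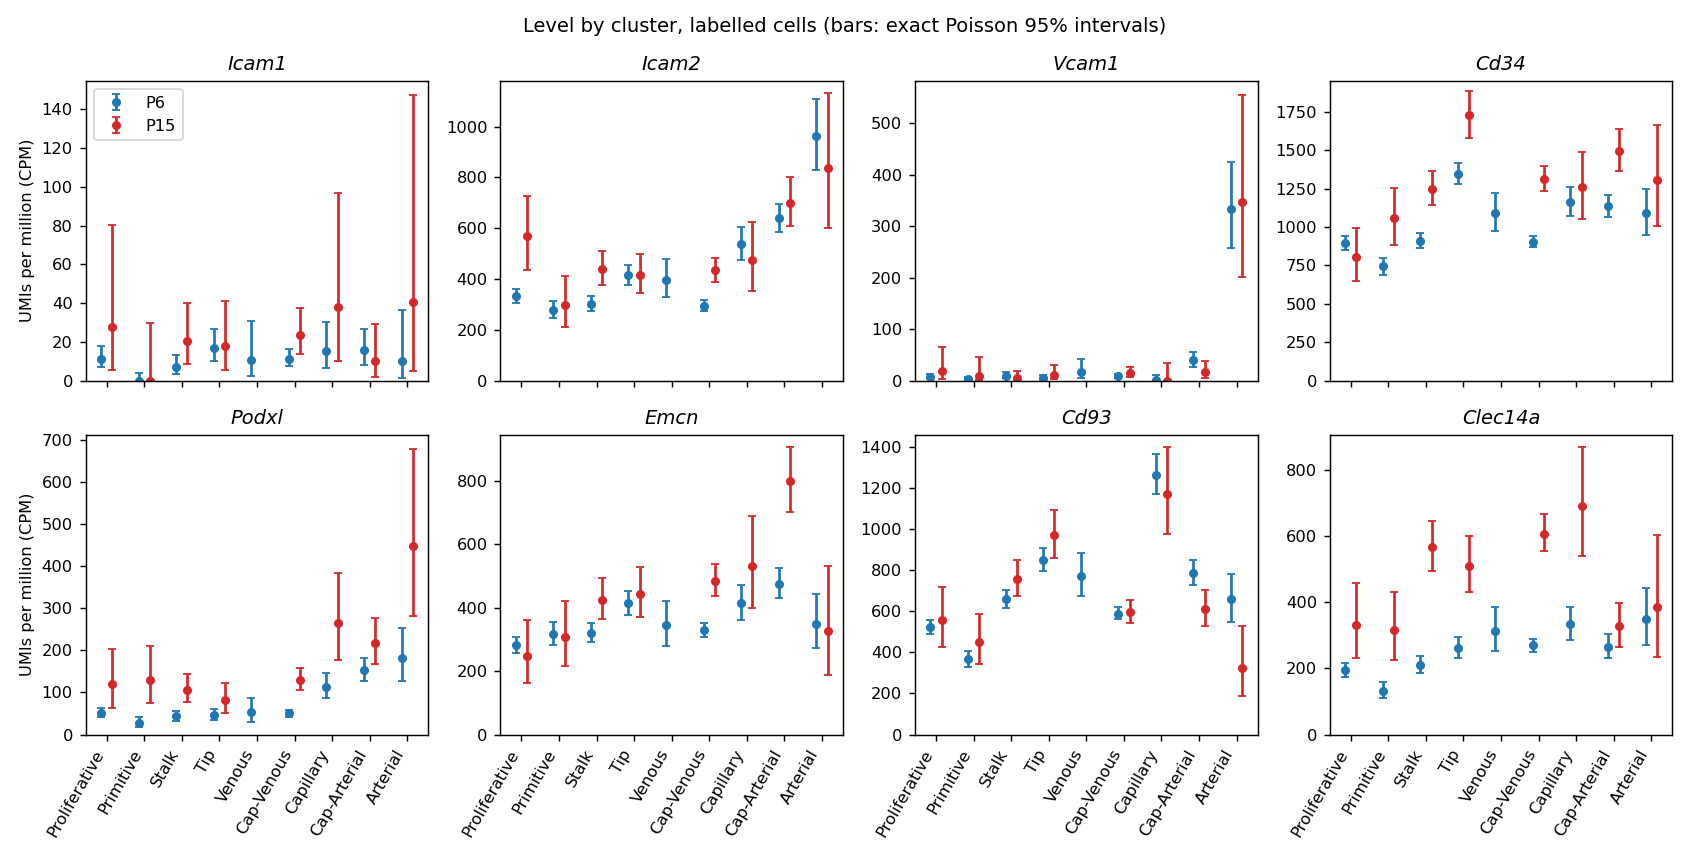
Points are the level of 8 genes in CPM in each cluster of labelled cells, at P6 (blue) and P15 (red), with exact Poisson 95% intervals; each panel has its own axis from 0, and the 2 Venous cells of P15 are not drawn. By mean level Vcam1 and Icam2 are highest in Arterial, Emcn in Cap-Arterial, Cd93 in Capillary and Cd34 in Tip cells at both ages. Some of these intervals overlap that of the next cluster, as for Emcn at P6.

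At P6 Primitive cells had the lowest level of Icam1, Icam2, Cd34, Podxl, Cd93 and Clec14a. Emcn was lowest in Proliferative cells (281 CPM) and Vcam1 in Capillary cells (1.91 CPM, 1 UMI). The share of all genes that were lowest in Primitive cells was not computed. Relative to all other labelled P6 cells Clec14a was at 0.528 (0.438 to 0.633), Cd93 at 0.534 (0.478 to 0.595), Podxl at 0.423 (0.274 to 0.626) and Emcn at 0.903 (0.799 to 1.02). The endothelial markers as a list were also lowest there, 4166 CPM, against 5901 in Proliferative and 11497 in Capillary cells. At P15 Proliferative cells (14) were lowest for Cd34 and Emcn, 806 and 247 CPM.

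The genes around these molecules were read from lists. Of other endothelial genes of leukocyte passage, 13 of 18 could be compared; 3 were 1.5-fold higher and 2 lower at P15 (median 1.24). Cx3cl1, a membrane-bound chemokine, was at 2.39 (1.88 to 3.06) and the junction protein Jam2 at 1.78 (1.62 to 1.96). Mcam was at 0.488 (0.448 to 0.531) and Nectin2 at 0.621 (0.577 to 0.669). Among 9 of 11 partners of the lectins and sialomucins, 3 were higher and 1 lower (median 1.11). Slc9a3r2, which encodes the NHERF2 adaptor that ties podocalyxin to ezrin, was at 3.03 (2.90 to 3.15), 325 CPM at P6 and 982 at P15, and Thbd, thrombomodulin, at 2.47 (2.20 to 2.77). Mmrn1 was at 0.160 (0.0936 to 0.259), while Mmrn2, the ligand of Cd93 and Clec14a, was at 1.11 (1.04 to 1.19); it was named after its value was seen. Ptk2 was at 0.751 (0.642 to 0.878).

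Of 15 genes of mucin glycan and selectin-ligand synthesis with enough UMIs (20 listed), 6 were higher and 2 lower (median 1.17). The sialyltransferases St6gal1 and St3gal6 were at 2.83 (1.73 to 4.73) and 2.65 (2.45 to 2.87). C1galt1, which builds the core 1 O-glycan, was at 0.505 (0.356 to 0.706) and Fut4 at 0.641 (0.402 to 1.004). Of 17 of 21 cytokine response genes, 5 were higher and none lower (median 1.08): Traf1 was at 7.41 (3.47 to 18.2) from 8 and 47 UMIs and Nfkbia, the inhibitor of NF-kappa B, at 2.18 (2.08 to 2.29), with Tnfrsf1a at 0.732 (0.667 to 0.803) and Nfkb2 at 0.887 (0.703 to 1.12). Of 11 leukocyte counter-receptors 3 had enough UMIs; Itga4, the alpha chain of the Vcam1 receptor, was at 0.601 (0.512 to 0.702), Itgb1 at 0.986 and Cd24a at 0.990. Itgb2, the beta chain of the receptors of Icam1 and Icam2, gave 2 UMIs at P6 and none at P15. The shares of all genes were again 19.7% higher and 12.6% lower.

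Likeness of pattern was read as Pearson's r of log2(CPM + 1) over the 9 P6 clusters among 5870 genes with at least 200 UMIs, a description over clusters that share a library and differ in depth. Among the genes most like each gene were Uaca, Heg1 and Eogt for Podxl (0.985 to 0.989), Tulp4, Kdm2a and Chfr for Clec14a (0.977 to 0.981), Sparc and Dync1i2 for Cd93 (0.966 to 0.969), Cast, Dync1li2 and Orai1 for Icam2 (0.953 to 0.961), Pecam1, Ctsb and Cxcr4 for Cd34 (0.936 to 0.943), and Tmem63b, Cd38 and Sec31a for Emcn (0.898 to 0.934). Over the 8 P15 clusters the same pairs were lower, from -0.0146 for Emcn with Sec31a to 0.797 for Cd34 with Pecam1. The pairs were picked as the highest at P6, and the minimum of 200 UMIs was set at P6 only. A lower r at P15 therefore follows from the choice and does not describe age. Within the set, Icam2 and Podxl, also picked as most alike at P6 with r = 0.938, had r = 0.696 at P15.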

How the data were processed

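Retinal endothelial cells (CD31+CD45-) of P6 and P15 wild-type mice were measured as 1 10x Genomics library per age. The authors deposited raw counts of UMIs per gene and barcode, without normalization. Per the labels, Seurat 3.0 and mm10 were used. The aligner and annotation of these counts were not given in the sources used here. UMIs of identifiers without a symbol (0.0145% at P6, 0.0146% at P15) were left out.

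The study's source data gave the cluster of each cell, in a copy that is complete for P6 (1560 cells) and leaves out 1235 of the P15 cells kept. Cells were kept that had a label or passed the filter of the study as read here (200 to 3500 genes, at most 5% mitochondrial UMIs, and neither Cd63, Hbb-bt nor Neurod1 detected), 1585 at P6 (9729405 UMIs) and 1673 at P15 (7709840 UMIs). The RNA counts of the stated filter were read as genes per cell, and 161 labelled P6 and 29 labelled P15 cells did not pass it, so other readings are possible. No doublet caller was run. UMIs were summed by gene, library and cluster and scaled to CPM. Summed CPM are not corrected for gene length, so levels are compared within a gene only. Intervals are exact Poisson for levels, Clopper-Pearson for shares and conditional binomial for ratios (normal on the log scale for a ratio of ratios), at 95%, and cover counting error only. A count of 0 was bounded with 3 counts. Genes were called higher or lower at 1.5-fold, among those with at least 50 UMIs in the cells compared. Pericyte-profile barcodes held at least 5 UMIs of the pericyte markers and neural-profile barcodes at least 5 of the neural markers, both without Cdh5 or Pecam1. Other endothelial markers were allowed, so these barcodes were not free of endothelial RNA. Cells were thinned to 3000 UMIs, which left out 179 P6 and 481 P15 cells. The 1235 P15 cells without a label took one by vote of 15 neighbours on 13 principal components of up to 3000 variable genes per library, the 10 genes left out. Recovery of held-out P15 labels ran from 30.95% of Capillary and 58.8% of Stalk to 92.9% of Proliferative cells. Counts were also simulated for P15 over P6 as Poisson draws, in which 200 genes differed 3-fold. Of 11095 genes, 95.7% had an interval that contained the simulated ratio. The draws held no variation among cells or libraries, so this checks the calculation of the intervals and not their cover of these data.

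The genes named are the 10 members, from each other list up to 2 with the largest and 2 with the smallest ratio, and the 3 most like each member with at least 200 UMIs. One gene under this rule is not reported here. Members and lists were chosen with earlier results of these data known. Alternatives covered cells, depth, scaling, single cells and the UMI minimum. Gene positions follow GENCODE M21 (GRCm38). Python 3.11.15, numpy 2.4.6, scipy 1.17.1, pandas 2.3.3 and scikit-learn 1.9.0 were used.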

Additional observations from a re-analysis of the deposited data

Results flagged for a closer look

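For 3 genes the ratio of arterial to venous clusters lay above 1 at P6 and below 1 at P15, with 1 library per age and the difference between ages not tested. Clec14a went from 1.03 (0.897 to 1.18) to 0.554 (0.449 to 0.680), and was at 0.536 in unlabelled P15 cells with predicted labels. Cd93 went from 1.26 (1.15 to 1.37) to 0.961 (0.810 to 1.14), and was at 1.14 in the predicted cells, back above 1. Icam1 went from 1.30 (0.654 to 2.45, 48 UMIs) to 0.608 (0.177 to 1.70, 23 UMIs), and was at 0.385 (0.184 to 0.731, 82 UMIs) in the predicted cells.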

How the results depend on the processing

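No paired analysis was possible because each age had 1 library and the labels give no replicate number. The 4 genes higher at P15 were 3 to 5 under the 11 alternatives; Vcam1 was the one lost, at 1.14 in labelled cells and 1.10 at the P6 cluster makeup, the latter added after seeing the data, as was leaving out cells with a pericyte UMI. Without the minimum of 50 UMIs the genes 1.5-fold lower numbered 1 in place of 0 at P15 against P6 (Selp), 1 in place of 0 on the arterial side at P6 (Selp, 0 against 2 UMIs) and 2 in place of 1 at P15 (Icam1, 23 UMIs). Arterial against Cap-Venous cells only gave 2 lower at P15 (Cd93 at 0.546 and Clec14a at 0.637), and reversed Emcn from 1.52 to 0.673. Predicted labels gave 2 lower (Clec14a and Icam1). The 3 genes higher on the arterial side at P15 were 2 in 6 alternatives, each time without Emcn, and 4 without the minimum of UMIs. Of the ratios of single genes, 205 stayed inside the interval of the reported value, 40 moved outside it and 1 reversed; among them are the ratios by cluster with predicted P15 labels, also added after seeing the data. The depth limits Selp, Sele and, at P15, Vcam1 and Icam1 by cluster.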
